A study of Mus musculus with 2 samples.

Results

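Mir122, the Mir192, Mir194 and Mir215 genes and the Mir200 family are miRNA genes known from liver, from kidney and gut, and from epithelia, and their levels were read here in the mouse adrenal gland. The members were chosen by name: liver (Mir122), kidney and gut (Mir192, Mir194-1, Mir194-2, Mir215) and the epithelial Mir200 family (Mir200a, Mir200b, Mir200c, Mir141, Mir429), which makes 10 of the 2202 miRNA genes of the deposited tables, all found by their annotated symbol. MicroRNA-seq libraries with inserts below 30 nt had been made from total RNA of adrenal gland tissue of C57BL/6J mice, an inbred strain, called wild type in the labels, which name no treatment. The series holds 1 group of 2 libraries, labelled biological replicates 1 and 2, with the same donor record, an unknown age and stage, and a sex field that reads not collected beside a free text that says male. The replicates are therefore not shown to be separate animals, their spread may be technical, and no contrast of conditions exists.

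MiRNAs are cut from hairpin transcripts as short guides that pair with messenger RNAs mainly through the seed, bases 2 to 8 of the mature strand, and lower their translation and stability. miR-122 is the dominant miRNA of hepatocytes, where it bears on lipid metabolism. The miR-192, miR-215 and miR-194 group is known from kidney, gut and liver. The miR-200 family holds epithelial cells in their state by repressing Zeb1 and Zeb2, the repressors of E-cadherin. The adrenal gland lies at the upper pole of the kidney, and consists of a steroid-producing cortex and a catecholamine-producing medulla.

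The mature strands known as the main product of each hairpin are shown because the genes group by seed, and because nearly identical strands decide which reads can be placed at 1 gene. The counts below are per hairpin gene and are not split by arm, so reads of the other strand of a hairpin are included. In the RefSeq table used here, on build GRCm38.p6, 9 of the 10 members were matched and Mir122 was not, and all 9 had hairpin positions equal to those of the annotation used for counting. The sequences run 5′ to 3′, with the seed in capitals.
miR-200b-3p: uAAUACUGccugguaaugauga
miR-200c-3p: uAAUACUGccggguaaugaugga
miR-429-3p: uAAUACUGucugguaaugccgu
miR-200a-3p: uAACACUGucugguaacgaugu
miR-141-3p: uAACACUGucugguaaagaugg
miR-192-5p: cUGACCUAugaauugacagcc
miR-215-5p: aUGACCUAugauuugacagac
miR-194-5p: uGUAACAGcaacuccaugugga

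The 9 genes carry 4 seeds. AAUACUG is shared by Mir200b, Mir200c and Mir429, AACACUG by Mir200a and Mir141, UGACCUA by Mir192 and Mir215, and GUAACAG by both Mir194 genes. No other mature miRNA of the RefSeq table has any of these 4 seeds. With positions counted from 1 at the 5′ end and miR-200b-3p given first, miR-200a-3p differs by U4C inside the seed and by C9U, U17C and A22U outside it. Within a seed group the differences lie outside the seed. miR-200c-3p differs from miR-200b-3p by U11G and A22G over the 22 positions compared, and miR-429-3p by C9U, A19C, U20C and A22U. miR-141-3p differs from miR-200a-3p by C17A and U22G. miR-215-5p differs from miR-192-5p by C1A, A12U and C20A.

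Mir194-1 and Mir194-2 give 1 identical mature 5p strand from separate chromosomes, so their hairpins are shown whole, with the longest stretch they share, 22 nt, in capitals.
Mir194-1: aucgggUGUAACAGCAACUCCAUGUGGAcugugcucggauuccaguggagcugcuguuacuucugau
Mir194-2: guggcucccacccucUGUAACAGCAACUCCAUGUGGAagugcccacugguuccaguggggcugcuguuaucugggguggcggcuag
A read that lies wholly inside the capitals maps to both places, and the tables set such reads aside in a line of their own. Of the 10 members, only these 2 hold a run of 20 nt also found in a hairpin elsewhere, and their counts are those of reads that reach past it or come from the other arm. Their levels are therefore uncertain. For the other 8 no such run was found among annotated hairpins.

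The members lie in 4 clusters and at 1 lone locus of mm10. On chromosome 4, on the minus strand, Mir200b (chr4:156055681-156055750), Mir200a (chr4:156054896-156054985) and Mir429 (chr4:156053905-156053987) stand within 1846 bp, in introns of the protein-coding gene Ttll10. Mir429 also lies in an exon of the processed transcript Gm13648. On chromosome 6, also on the minus strand, Mir200c (chr6:124718322-124718390) and Mir141 (chr6:124717914-124717985) stand within 477 bp, in introns of the antisense gene Gm15884, and Mir141 also overlaps an exon of Gm29008. On chromosome 19, on the plus strand, Mir194-2 (chr19:6264643-6264728) and Mir192 (chr19:6264844-6264932) stand within 290 bp, outside any other annotated gene. On chromosome 1, on the plus strand, Mir194-1 (chr1:185313319-185313385) and Mir215 (chr1:185313581-185313692) stand within 374 bp, opposite an intron of the isoleucyl-tRNA synthetase gene Iars2. On their own strand lies the noncoding gene 2010103J01Rik, with Mir215 in an exon of it and Mir194-1 in an intron. Mir122 lies on chromosome 18 in an exon of an annotated long noncoding RNA, with no other miRNA gene within 10 kb. No miRNA gene other than the members was annotated within 10 kb of any of them.

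Replicate 1 held 10263894 counts assigned to miRNA genes, which were 49.8% of its reads, and replicate 2 held 3525666, which were 33.2%. Unmapped reads made up 13.8% and 41.4%, and multimapping reads 37.8% and 38.8% of the mapped ones. Levels are given in CPM, the count divided by all counts assigned to miRNA genes and scaled to 1000000, so 1 count was worth 0.0974 CPM in replicate 1 but 0.284 CPM in replicate 2. A count of 0 was taken to allow up to 3 counts, or 0.292 and 0.851 CPM. For 0 counts the exact 95% binomial interval reaches higher, to 0.359 and 1.05 CPM. The intervals at single replicates are exact 95% binomial (Clopper-Pearson) intervals, and they and these limits cover counting error only. Replicate 2, with fewer counts, gives the wider intervals throughout. Reads were of mature size, so no scaling by length was applied.

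Together the 10 members summed to 226 and 224 CPM in replicates 1 and 2, with a mean of 225 CPM ± 1.80 (SD, n = 2), or 0.0225% of assigned counts. Of the 10, the 5 genes Mir122, Mir192, Mir194-2, Mir200b and Mir429 reached 10 CPM in each library, the level called detected, where 12.1% of all 2202 genes passed the same rule. At least 1 count in both replicates was found for 9 of 10, against 26.1% of all genes. Their median level was 11.03 CPM, beside 1.44 CPM over the genes with any count and 0 over all genes, of which 1435 had no count. The name given to the group, miRNAs at trace, therefore holds for their share of the assigned counts. This share leaves out the reads that the Mir194 hairpins have in common, so the summed count is a lower bound. The total it is divided by leaves out multimapping reads too, so the share itself may be too low or too high. In level, 9 of the 10 lay above the 1.44 CPM median of the genes with a count, while Mir194-1, at 0.244 CPM, lay below it. Of all 2202 genes, 1087 hold a run of 20 nt found in another hairpin, so their counts, and any rank set among them, may leave out reads.

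**Figure D1:**
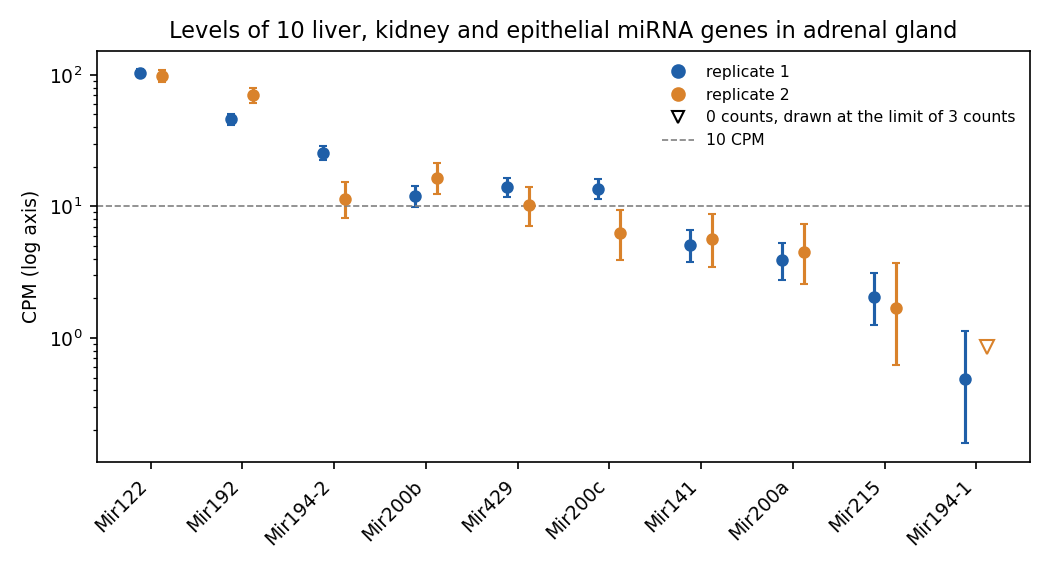
CPM on a log axis for each of the 10 miRNA genes in replicate 1 (blue) and replicate 2 (orange), with exact 95% binomial intervals as bars, ordered by mean. Mir122 and Mir192 stand above all others in both replicates, and Mir194-1, without a count in replicate 2, is drawn there at its limit of 0.851 CPM.

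Mir122, the hepatocyte miRNA gene, was the highest member. It had 1063 counts in replicate 1 and 344 in replicate 2. These were 104 CPM (97.4 to 110) and 97.6 CPM (87.5 to 108), so the replicates lay within each other's intervals. The mean was 101 CPM ± 4.24 (SD, n = 2), at rank 179 of 2202. The miRNA genes next to it in level were Mir329 (102 CPM) and Mir136 (100.5 CPM), both of the imprinted Dlk1-Dio3 region. The leading adrenal gene Mirlet7g had 1378 times its CPM in replicate 1 and 1085 times in replicate 2. In bulk tissue, fewer cells of a type and less RNA per cell cannot be told apart, here and in all levels below.

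Mir192 was the highest of the kidney and gut genes and second among the members. It had 472 counts, or 46.0 CPM (41.9 to 50.3), in replicate 1 and 247 counts, or 70.1 CPM (61.6 to 79.4), in replicate 2, with a mean of 58.0 CPM ± 17.0 (SD, n = 2). Its place in the order was the same in both replicates, since both values lay below those of Mir122 and above those of every other member. Mir122 stood 2.25-fold above it in replicate 1 and 1.39-fold in replicate 2.

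Mir215, which has the same seed as Mir192, was low. It had 21 counts, or 2.05 CPM, in replicate 1 and 6 counts, or 1.70 CPM, in replicate 2. Mir192 exceeded it 22.5-fold and 41.2-fold. The 2 genes together took 48.0 CPM and 71.8 CPM, with both arms of each hairpin counted, so the share of the seed UGACCUA itself was not measured.

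Mir194-2, the cluster partner of Mir192, had 263 counts (25.6 CPM, 22.6 to 28.9) in replicate 1 and 40 counts (11.3 CPM, 8.11 to 15.4) in replicate 2. Mir194-1, the partner of Mir215, had 5 counts (0.487 CPM) and 0 counts. The copy beside the abundant Mir192 was thus the higher of the Mir194 pair in both replicates, and the copy beside the scarce Mir215 was the lower. Both counts leave out the reads that the hairpins printed above share.

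The Mir200 family summed to 48.6 and 43.1 CPM in replicates 1 and 2, with a mean of 45.9 CPM ± 3.89 (SD, n = 2) over its 5 genes. Mir200b had 123 counts, or 12.0 CPM (9.96 to 14.3), in replicate 1 and 58 counts, or 16.5 CPM (12.5 to 21.3), in replicate 2. Mir429 had 144 counts, or 14.03 CPM (11.8 to 16.5), and 36 counts, or 10.2 CPM (7.15 to 14.1). Mir429 was the higher of the pair in replicate 1 and Mir200b in replicate 2.

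Mir200c had 140 counts, or 13.6 CPM (11.5 to 16.1), in replicate 1 and 22 counts, or 6.24 CPM (3.91 to 9.45), in replicate 2, so it passed 10 CPM in the first alone. Mir141 had 52 counts, or 5.07 CPM, and 20 counts, or 5.67 CPM. Mir200a had 40 counts, or 3.90 CPM, and 16 counts, or 4.54 CPM. The last 2 share the seed AACACUG and were the lowest of the family in both replicates. Summed over whole genes, with both arms counted, those with the seed AAUACUG took 36.3 CPM ± 4.77 (SD, n = 2) and those with AACACUG 9.59 CPM ± 0.88.

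By mean level the order ran Mir122, Mir192, Mir194-2, Mir200b, Mir429, Mir200c, Mir141, Mir200a, Mir215, Mir194-1. Of the 9 neighbouring pairs in it, 6 had replicate values that did not overlap, and 2 of these, Mir122 over Mir192 and Mir192 over Mir194-2, had intervals that stayed apart in both replicates. Mir194-2, Mir200b, Mir429 and Mir200c overlapped each other in turn across the replicates. Within each replicate Mir194-2 stood above Mir429 and Mir429 above Mir200c, but not with intervals apart in both. Mir200b was the lowest of these in replicate 1 and the highest in replicate 2. No likeness of pattern to other genes was computed, since 2 libraries of 1 group hold no pattern across conditions.

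The genes next to each member in mean level place it in the profile. Mir192 stood between Mir18 (59.8 CPM), of the proliferation-linked Mir17-92 cluster, and Mir326 (56.3 CPM). Mir194-2 stood between Mir29b-2 (19.5 CPM) and Mir199b (18.3 CPM), both of which hold a run of 20 nt found in a second hairpin. Mir200b stood between Mir505 (14.3 CPM) and Mir6236 (13.6 CPM), Mir429 between Mir135b (12.4 CPM) and Mir486 (11.5 CPM), and Mir200c between Mir6240 (10.1 CPM) and Mir218-2 (9.70 CPM), which shares a run of 20 nt with Mir218-1. Mir141 stood between Mir3058 (5.42 CPM) and Mir346 (5.35 CPM), and Mir200a between Mir1949 (4.39 CPM) and Mir7083 (4.19 CPM). Mir215 stood between Gm25745 (1.88 CPM) and Mir1943 (1.86 CPM). Mir194-1 shared its 0.244 CPM with its neighbours Mir1191b and Mir3087.

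**Figure D2:**
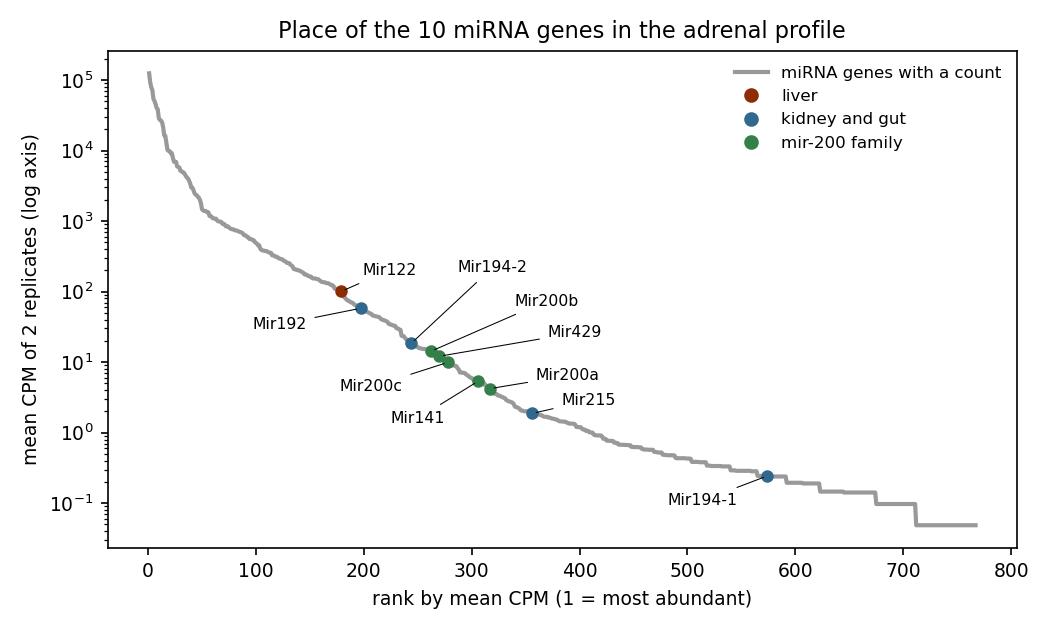
Mean CPM of 2 replicates on a log axis against rank, for every miRNA gene with a count (grey line), with the 10 members as coloured points. Mir122 is at rank 179, the Mir200 family falls between ranks 262 and 317, and Mir194-1 lies on the flat tail of genes with a few counts.

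The replicates were compared per gene by an exact two-sided binomial test on TMM-scaled totals, with Benjamini-Hochberg adjustment over the 443 genes with at least 10 counts. It compares 2 libraries, not conditions. Of the 9 members tested, 3 differed between the replicates, where 52.8% of all tested genes did. Higher in replicate 1 were 2 members (31.6% of all tested genes) and higher in replicate 2 was 1 (21.2%). Over the tested genes with a mean of 1 to 150 CPM, a range set after the values were seen, 36.1% differed, so the members' count lay near the share at like levels. Mir194-1, with 5 counts, was not tested.

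The called members differed in both directions. Mir192 was higher in replicate 2, with a log2 ratio of replicate 2 over replicate 1 of 0.59 (95% interval 0.36 to 0.81, exact binomial test, adjusted p = 1.04e-06). Mir194-2 was lower in replicate 2, with a log2 ratio of -1.18 (-1.71 to -0.71, exact binomial test, adjusted p = 3.48e-07). Mir200c was also lower there, with a log2 ratio of -1.12 (-1.87 to -0.49, exact binomial test, adjusted p = 0.000513).

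The other 6 tested members did not pass. The nearest to it was Mir200b, with a log2 ratio of 0.45 (-0.04 to 0.90, exact binomial test, adjusted p = 0.11). Mir429 had a log2 ratio of -0.46 (-1.05 to 0.06). Mir122 had the narrowest interval, -0.10 (-0.28 to 0.07). The intervals of Mir141 (-0.68 to 0.91), Mir200a (-0.73 to 1.07) and Mir215 (-1.88 to 1.07) leave room for differences of the size seen in Mir192, in either direction. So do those of Mir200b, towards replicate 2, and of Mir429, towards replicate 1. The median tested member lay 1.36-fold apart between the replicates, as did the median of all tested genes.

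**Figure D3:**
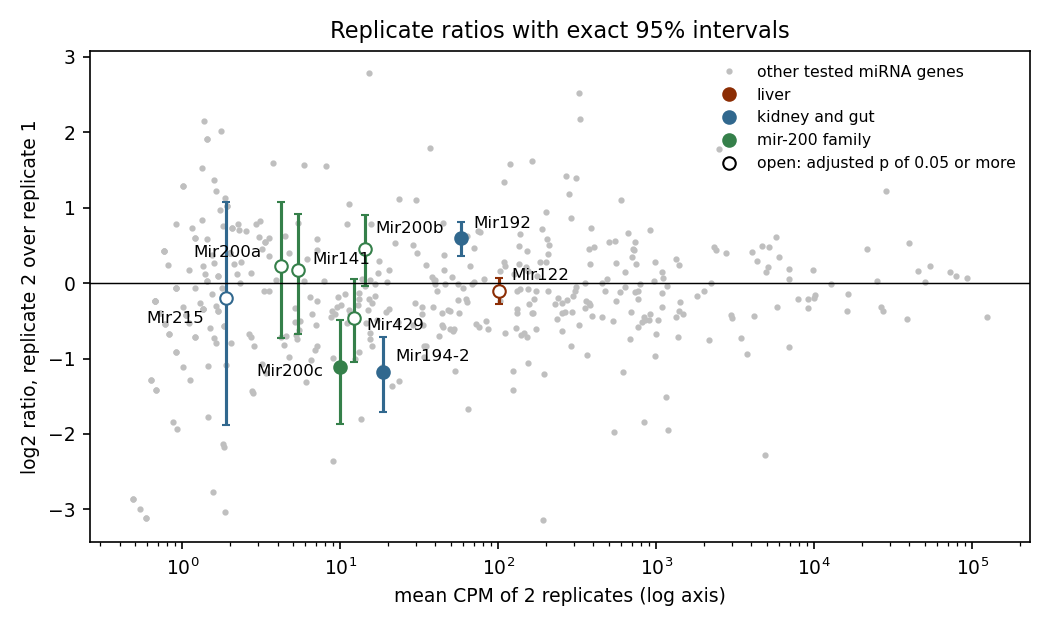
Log2 ratio of replicate 2 over replicate 1 against mean CPM (log axis) for the 9 tested members, with exact 95% intervals, over the other tested miRNA genes (grey). Filled points, Mir192, Mir194-2 and Mir200c, have an adjusted p under 0.05, and Mir192 lies above 0 while the other two lie below it.

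Members of 1 cluster come from neighbouring hairpins of the same strand, and their balance was compared between replicates. The chromosome 19 cluster as a whole took 71.6 CPM in replicate 1 against 81.4 CPM in replicate 2. Within it Mir192 made up 64.2% of the counts (60.6 to 67.7) in replicate 1 and 86.1% (81.5 to 89.9) in replicate 2. There were 1.79 counts of Mir192 for each of Mir194-2 in the first and 6.17 in the second. The intervals do not overlap, and the uncertainty of Mir194-2 applies to this ratio too.

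The chromosome 4 cluster took 29.9 CPM and 31.2 CPM. Mir200b made up 40.1% of it (34.5 to 45.8) in replicate 1 and 52.7% (43.0 to 62.3) in replicate 2, Mir429 46.9% (41.2 to 52.7) and 32.7% (24.1 to 42.3), and Mir200a 13.0% (9.47 to 17.3) and 14.5% (8.55 to 22.5). The intervals overlap for all 3, and Mir200a was the lowest in both. The chromosome 6 cluster took 18.7 CPM and 11.9 CPM. Mir200c made up 72.9% of it (66.0 to 79.1) in replicate 1 and 52.4% (36.4 to 68.0) in replicate 2, with overlapping intervals. In the chromosome 4 and chromosome 6 clusters such overlap does not show equal shares, and changes in share were not tested. The chromosome 1 cluster had 26 counts and 6 counts, mostly of Mir215.

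**Figure D4:**
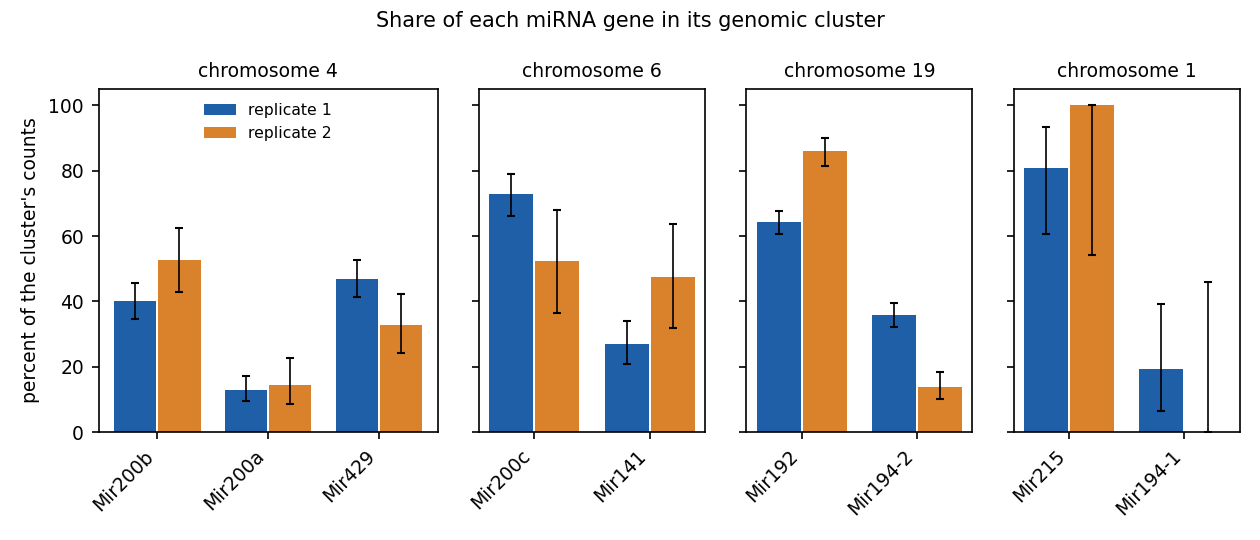
Percent of each genomic cluster's counts that came from each of its miRNA genes, in replicate 1 (blue) and replicate 2 (orange), with exact 95% binomial intervals as bars. Mir192 makes up 64.2% of the chromosome 19 cluster in replicate 1 and 86.1% in replicate 2. In the chromosome 4 and chromosome 6 clusters the intervals overlap, which does not show equal shares.

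Reads on the strand opposite the members were few. Mir200a had 2 antisense counts in replicate 1 and 1 in replicate 2, Mir194-1 had 2 and 0, and the other 8 members had 0 in both. None exceeded 3 counts in both replicates. The counts without regard to strand were therefore equal to the sense counts for 8 members.

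Other organ-linked lists were set beside the members. The 10 skeletal and cardiac muscle genes took 4.87 and 7.37 CPM, led by Mir206 (2.35 CPM) and Mir1b (1.91 CPM). All copies of Mir1a and Mir133a, which had no count, and also Mir1b and Mir133b hold a run of 20 nt found in another hairpin. For these 6 of the 10 genes reads can have been set aside. The summed count is thus only a lower bound, and the list cannot be ranked against the members. Of the 4 others, Mir208a and Mir208b had no count. Mir206 holds no such run, and Mir122 had 48.3 and 38.2 times the CPM of Mir206. The 3 exocrine pancreas genes took 1.66 and 0.284 CPM, nearly all Mir217 (16 counts and 1 count) above Mir216b (1 and 0), and 1 had no count. The 11 embryonic stem cell genes took 10.04 and 6.24 CPM, led by Mir293 (2.25 CPM) and Mir294 (1.84 CPM), with 3 without a count. Mir302a, Mir302b and Mir291a hold shared runs, so the summed count of this list too is a lower bound. The 6 neuronal genes had 1 count in all, in Mir9-3, but each of them holds a run of 20 nt found in a second hairpin and their level cannot be read. Mir802, known with the kidney and liver factor HNF1 and from islets, had 0 counts in both replicates. The limit of 3 counts is there 0.292 and 0.851 CPM.

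Other epithelial genes did not share one level with the Mir200 family. Mir203, a miRNA of stratified epithelium, stood at 509 and 815 CPM in replicates 1 and 2. That was 4.92 and 8.35 times the level of Mir122. Mir205, of the same kind of epithelium, had 10 and 5 counts (1.20 CPM ± 0.31, SD, n = 2). Among the 5 genes of multiciliated epithelium, Mir34c had 1868 and 490 CPM and Mir34b 38.3 and 39.7 CPM. Mir449a had 44.9 and 23.0 CPM, Mir449c 1 and 0 counts, and Mir449b no count. Epithelium-linked genes thus lay on both sides of the Mir200 family.

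Genes that are abundant in liver or kidney without being restricted to them stood higher than the member of the same organ. Mir148a had 172 and 393 CPM, which was 1.66 and 4.02 times the level of Mir122. Mir204 had 106 and 169 CPM, 2.30 and 2.41 times that of Mir192. The kidney-rich list was led by Mir10a (78579 CPM) and Mir10b (26628 CPM), and the liver-rich list by Mir21a (5944 CPM) and Mir101b (406 CPM, uncertain through a run of 20 nt shared with Mir101a). No gene of these 2 lists lacked a count. Of brown fat genes, Mir378a had 1065 and 1128 CPM, uncertain through a run of 20 nt shared with Mir378c, and Mir193b 7.99 and 13.9 CPM, and none of the 3 lacked a count. The smooth muscle genes Mir143 (25139 CPM) and Mir145a (980 CPM) and the endothelial Mir126a (92756 CPM) had counts in both replicates, and so did all 4 medullary genes, led by Mir375 (72033 CPM) and Mir7b (4150 CPM). The medullary and vascular genes of the labelled tissue were thus abundant.

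Blood genes were set beside the members, since miR-122 is also known as a circulating miRNA of plasma. The 3 red blood cell genes summed to 8370 and 1814 CPM in replicates 1 and 2, at a ratio of 4.61. Most of the sum was Mir451a, at 8085 and 1685 CPM, with Mir144 at 272 and 119 CPM. Mir486 had 13.2 and 9.93 CPM and was not called different between the replicates. Shared runs were not sought between hairpins that overlap each other, so reads of Mir486 may have been set aside unseen. Over the same libraries the CPM of Mir122 had a ratio of 1.06, and whether its counts came from blood was not tested. The 5 leukocyte genes summed to 1648 and 1700 CPM, led by Mir146 (841 CPM, uncertain through a run of 20 nt shared with Mir146b) and Mir142 (374 CPM). None of these blood genes lacked a count. Mir194-2 (2.26-fold) and Mir200c (2.17-fold) were higher in replicate 1, the library with more red cell miRNA, more counts and fewer unmapped reads, and the part of these in their difference was not tested.

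**Figure D5:**
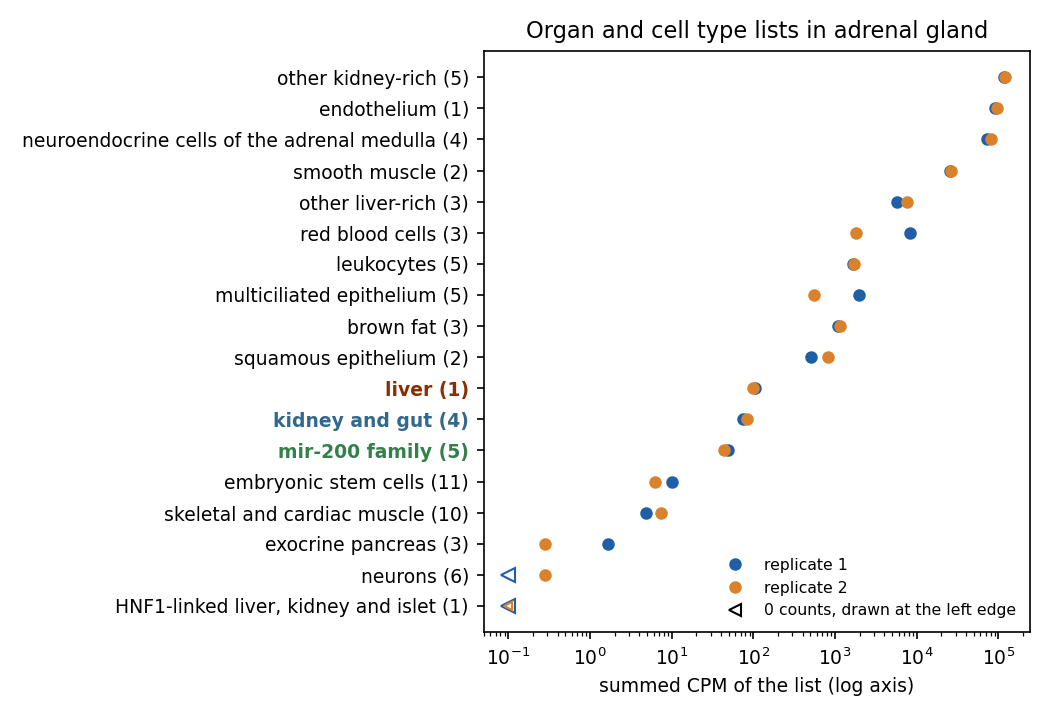
Summed CPM on a log axis of each miRNA list in replicate 1 (blue) and replicate 2 (orange), with the number of genes in brackets and the members' lists in colour. The liver, kidney and gut, and mir-200 lists lie between 43.1 and 104 CPM, above the pancreas list. The liver and mir-200 sums also lie below the blood, vascular and medullary ones. Reads shared between hairpins are left out, so the counts behind the kidney and gut, muscle, neuron and stem cell sums are lower bounds. The counts behind the brown fat, leukocyte, medullary and other liver-rich sums are lower bounds too, and those of red blood cells may be. The totals leave out such reads as well, so these CPM values may be too low or too high. Muscle, neuron and stem cell sums are not ranked, and kidney and gut is not ranked against the higher lists.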

How the data were processed

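Per the labels, small RNA libraries of adrenal gland were sequenced in 1 group of 2 replicates. The authors deposited raw counts per miRNA gene on mm10 with annotation M21, per the description files. The sources used here name no aligner or counter. The tables hold 3 columns of counts and 4 summary lines, which took 50.2% and 66.8% of reads and entered no total. The column with no ambiguous read and the larger assigned sum was taken as sense counts and used throughout. Names and positions came from GENCODE M21. Shared runs of 20 nt were sought among annotated hairpins on both strands, but not between hairpins that overlap each other. Levels are CPM, with SD over replicates.

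TMM factors (0.994 and 1.006) came from edgeR 4.0.16 in R 4.3.3, and size factors from DESeq2 1.42.0 served as an alternative. No condition was tested. Log2 ratios had 0.5 counts added. Python 3.11.15, scipy 1.17.1 and statsmodels 0.14.6 ran the exact tests. On simulated counts for the 443 genes of the replicate comparison, 65% of 100 genes changed 1.5-fold, 83% of 100 changed 3-fold and 1.65% of 243 unchanged genes were called. The simulation held counting error alone, so it cannot show how often other variation between libraries leads to a call. The named genes are all members, the next gene above and below each by mean CPM, and the top 2 of each of 15 lists. Some further genes of these lists are named too. Members and lists were chosen with earlier results of these data known. PCR copies cannot be told from molecules, so p-values and intervals measure counting error between these samples only. Ligation preferences between sequences were not measured.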

Additional observations from a re-analysis of the deposited data

How the results depend on the processing

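The share of each list depended on the total used, while the replicate ratios and calls of the members held. With totals taken without the 10 most abundant genes, the percent of assigned counts was 0.0268 for the liver list, 0.0210 for kidney and gut and 0.0122 for mir-200. With counts without regard to strand these were 0.0115, 0.00899 and 0.00526. Over all uniquely mapped reads the liver list had 0.00933. These settings change the denominator. Without the Mir194 genes, kidney and gut had 0.00599. Under TMM or DESeq2 scaling all 3 lists stayed within 1 SD. Leaving out a replicate gave 0.00976 to 0.0104, 0.00741 to 0.00831 and 0.00431 to 0.00486. Detected members numbered 9 at 1 CPM in both replicates (17.4% of all genes) and 8 at 10 counts in both (15.2%), against 5 by the rule used, and 5 to 6 with a replicate left out. The count of 3 members differing between replicates was the same under 5 other settings, and each member's ratio kept its sign and its side of 0.05 wherever tested. No paired analysis was possible because there is 1 group. Depth limits Mir215 and Mir194-1, with 6 and 0 counts in replicate 2.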
